A study of Mus musculus with 15 samples.

Results

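The WNK kinase pathway was examined in sorted alpha, beta and delta cells of the mouse islet through 9 genes, taken by symbol from the 38283 genes of the deposited expression table. They were the kinases Wnk1, Wnk2, Wnk3 and Wnk4, the downstream kinases Stk39 (SPAK) and Oxsr1 (OSR1), and the chloride cotransporters Slc12a2 (NKCC1), Slc12a5 (KCC2) and Slc12a7 (KCC4). Each symbol matched 1 row. The group was chosen by pathway, with Wnk3 selected on its higher FPKM in alpha than in beta and delta samples, so that pattern is described below without a test. RNA sequencing covered 15 samples from C57BL/6 mice. Alpha cells (n = 5) and beta cells (n = 4) were sorted from Glu-Venus mice, in which the Venus fluorophore is driven by the proglucagon promoter. The alpha cells were the fluorescent cells, and the beta cells were taken from the non-fluorescent cells by scatter and autofluorescence. Delta cells (n = 6) were sorted from Sst-CreXROSA26EYFP/EYFP mice, in which a Cre recombinase under somatostatin control switches on EYFP. No group received a treatment, and the ages of the animals were not given in the sources used here. Each sample was a pool of islets from several mice. Delta cells thus came from another mouse line, and effects of the line and of the cell type cannot be told apart.

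WNK kinases sense intracellular chloride and cell volume. They phosphorylate and activate SPAK and OSR1, which in turn phosphorylate the cation-chloride cotransporters. The phosphorylation activates NKCC1, which carries chloride into the cell, and inhibits the KCC transporters, which carry it out. The balance between them sets the intracellular chloride concentration, and with it whether the opening of a chloride channel, such as a GABA-A receptor, depolarises or hyperpolarises the cell. In beta cells, where intracellular chloride is kept high by NKCC1, chloride currents contribute to depolarisation and insulin release.

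Expression was given as FPKM, the fragments of a gene scaled to its length and to the depth of the library, so that levels of different genes can be set side by side. The defining markers followed the labels. Irx1, a transcription factor of alpha cells in the islet, averaged 18.8 FPKM in alpha cells and at most 0.366 in the others, and Gcg, Ins2 and Sst were each highest in the cell type named for them. The samples fell into 2 sets by 86 genes for ribosomal proteins. Their summed FPKM lay between 66063 and 141566 in 6 samples (alpha 1, 2 and 3, beta 2, delta 1 and 2) and from 8183 to 39078 in the other 9. The split was not particular to these genes. FPKM summed over all genes was 12474382 to 26257992 in the 6 samples and 2815725 to 4671212 in the other 9. Whether these sets reflect separate preparations was not tested, and mean levels within the sets are given for each of the 9 genes but Oxsr1. Read depth could be inferred from the spacing of low values in 5 samples and was unknown in the other 10. In the set with the higher sums it was 7.48 M reads in alpha sample 2, 10.7 M in delta sample 1 and 9.98 M in delta sample 2. In the set with the lower sums it was 30.4 M in delta sample 3 and 25.4 M in delta sample 4. Between 14761 and 18559 genes were above 0 in a sample. Differences between cell types were tested with limma on log2(FPKM + 1) in one fit of all 15 samples, over the 14405 genes with a mean above 1 FPKM in at least 1 cell type. The p-values were adjusted by the Benjamini-Hochberg method over all of these genes, and a gene was called where the adjusted p was under 0.05. On this scale the change of a gene with low FPKM is understated. All 9 genes of the pathway passed the filter, Slc12a5 only through delta cells, where its mean was 1.16 FPKM.

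**Figure D1:**
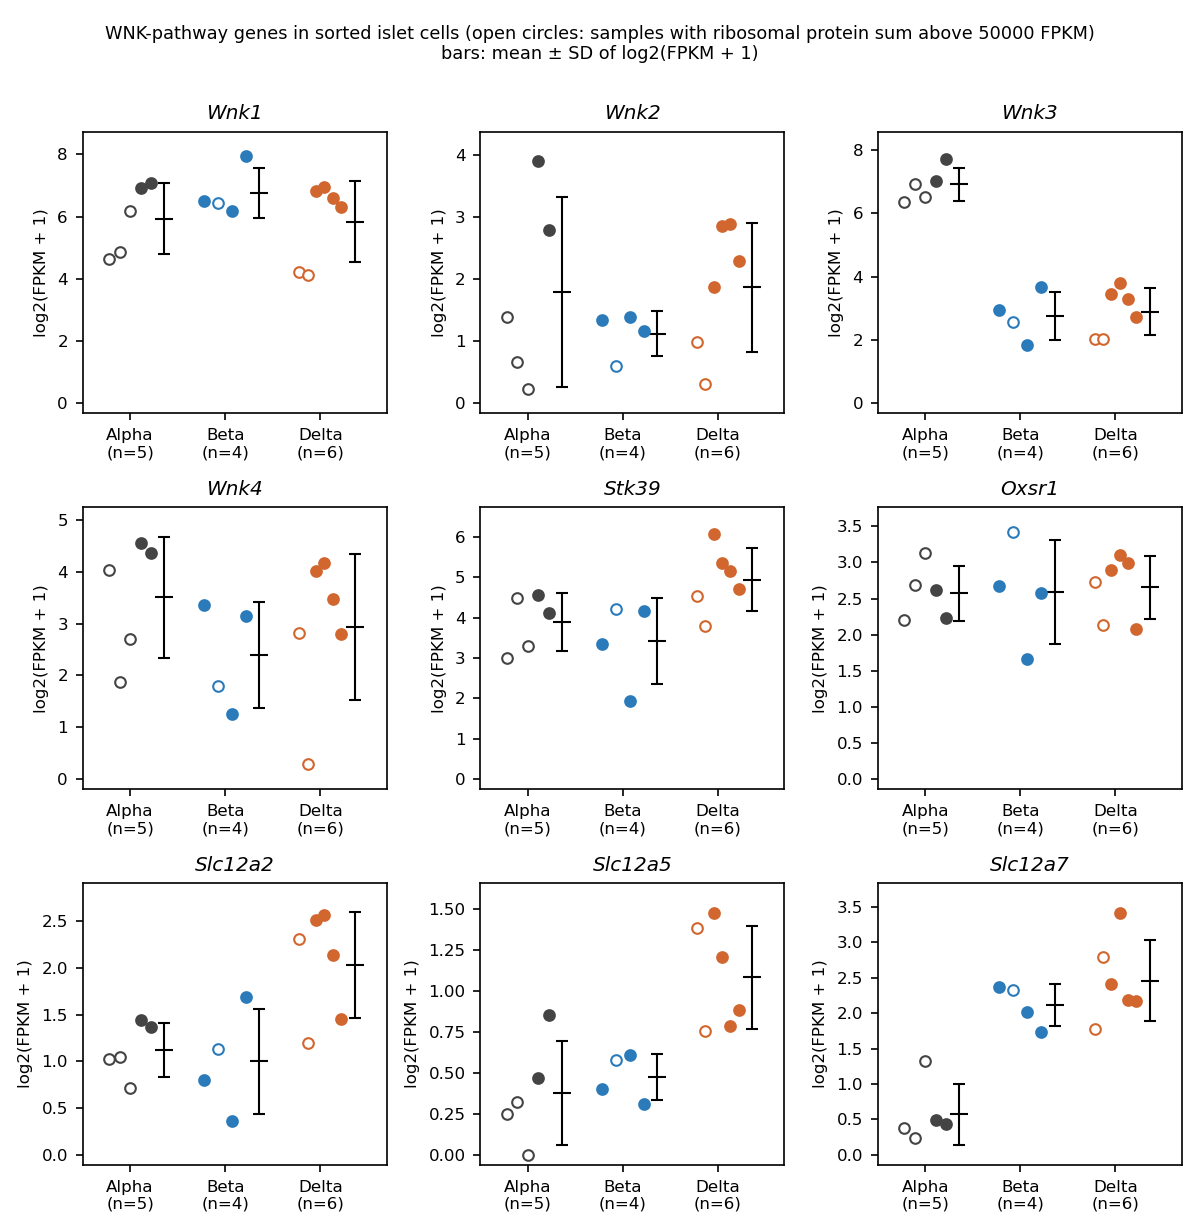
Expression of the 9 pathway genes, as log2(FPKM + 1), in each alpha (n = 5), beta (n = 4) and delta (n = 6) sample, with the mean ± SD beside the points. Open circles are samples with more than 50000 FPKM in ribosomal protein genes. Wnk3 is separated between alpha cells and the other cells, and Slc12a7 is low in alpha cells. Wnk1, Wnk2 and Wnk3 follow the 2 sets of samples within alpha and delta cells.

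Wnk3 (ENSMUSG00000041245) lies on the plus strand of chromosome X, at chrX:151198078-151320152 in GRCm38, and its longest coding transcript has 22 exons and 8551 nt. The promoters of Wnk3 and of its widely expressed relative Wnk1 are shown because Wnk3 had the highest mean of the WNK genes in alpha cells and Wnk1 in beta and delta cells. The sequences are the 250 bases before the RefSeq start (GRCm38.p6, 5′ to 3′ on the gene's strand). Capitals mark matches to the TATA box letters TATAAA, the CCAAT box, the GC box GGGCGG, the homeodomain core TAATTA, the forkhead letters TGTTTAC or the Maf half-site TGCTGA, searched on both strands, so that a match on the opposite strand appears as its reverse complement.
Wnk3 (chrX:151197828-151198077, plus strand): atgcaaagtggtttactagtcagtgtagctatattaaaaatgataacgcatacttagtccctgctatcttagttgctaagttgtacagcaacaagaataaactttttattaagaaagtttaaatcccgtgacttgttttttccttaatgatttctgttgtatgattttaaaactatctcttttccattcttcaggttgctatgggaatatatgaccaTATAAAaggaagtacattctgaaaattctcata
Wnk1 (chr6:120038656-120038905, minus strand): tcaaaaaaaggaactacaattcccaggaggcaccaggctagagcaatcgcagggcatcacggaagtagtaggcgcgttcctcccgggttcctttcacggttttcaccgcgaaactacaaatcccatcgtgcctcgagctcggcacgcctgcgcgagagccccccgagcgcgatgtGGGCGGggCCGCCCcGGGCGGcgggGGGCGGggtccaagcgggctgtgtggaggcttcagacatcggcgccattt
The Wnk3 window held 2 CpG dinucleotides, had a GC content of 30.4% and carried a single match, TATAAA, whose first base lay at -33 from the start. The Wnk1 window held 26 CpG dinucleotides, had a GC content of 64.0% and carried 4 GGGCGG matches, 3 of them on the gene's strand. Over 32851 mouse promoter windows of this length, the median was 6 CpG dinucleotides and a GC content of 52.4%, TATAAA occurred in 12.4% of windows and GGGCGG in 32.7%. Promoter windows were found for 8 of the 9 genes.

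Wnk3 was among the more abundant transcripts of alpha cells. It measured 81.4, 120.5, 90.4, 129.3 and 208.3 FPKM in the 5 alpha samples. The 4 beta samples gave 6.73, 4.88, 2.56 and 11.8 FPKM. In the 6 delta samples the lowest value was 3.11, the median 7.26 and the highest 13.0 FPKM. The lowest alpha sample was above every beta and delta sample. Such a separation held for 5.07% of all genes tested against beta cells and 1.67% against delta cells, from which nothing is read for Wnk3. Mean levels were 126.0 ± 50.1 FPKM in alpha (SD, n = 5), 6.48 ± 3.91 in beta (SD, n = 4) and 7.28 ± 3.99 in delta cells (SD, n = 6), so that the alpha mean was 19.4 times that of beta cells and 17.3 times that of delta cells. On the log2(FPKM + 1) scale beta cells differed from alpha cells by -4.15 and delta cells by -4.01. The difference was present in both sets of samples, since alpha cells averaged 97.5 FPKM in the high ribosomal set and 168.8 in the low set, whereas delta cells averaged 3.11 and 9.36. These values are part of why the gene was chosen, and Wnk3 is also in the study's own list of differential genes from these samples. Beta and delta cells, a comparison the choice did not use, differed by 0.14 (SE 0.454, 95% CI -0.82 to 1.10, limma, adjusted p = 0.874), a difference within the spread between samples whose direction turned with the scaling of the samples. The antisense gene A230072E10Rik overlaps Wnk3 and ranged from 0.794 to 13.3 FPKM in alpha samples, from 0.164 to 6.97 in beta samples and from 0.354 to 1.87 in delta samples. The library kit was not stated to keep strand information, so reads from the shared part of the 2 genes cannot be told apart.

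Wnk1 (ENSMUSG00000045962; chr6:119923969-120038672, minus strand), the ubiquitously expressed WNK kinase, was high in all 3 cell types. Its values were 24.0, 28.0, 71.7, 120.4 and 134.7 FPKM in the alpha samples, and 90.4, 85.8, 71.0 and 248.2 in beta cells. In delta cells the lowest value was 16.3, the median 87.2 and the highest 123.0 FPKM. The 3 ranges overlapped, and the samples of the high ribosomal set were the lowest of the alpha and of the delta samples. The mean was 41.2 FPKM in the high set of alpha cells against 127.6 in the low set, and 17.1 against 102.1 in delta cells. Beta cells differed from alpha cells by 0.83 (95% CI -0.70 to 2.36, adjusted p = 0.522, limma), delta cells from alpha cells by -0.10 (95% CI -1.48 to 1.28, adjusted p = 0.975) and delta cells from beta cells by -0.93 (95% CI -2.40 to 0.54, adjusted p = 0.411). Beta sample 4 was much higher than the other beta samples, and without it beta cells differed from alpha cells by 0.44 (adjusted p = 0.828).

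Wnk4 (ENSMUSG00000035112; chr11:101260567-101277409, plus strand) is known for its control of salt reabsorption in the kidney. It measured 15.5, 2.65, 5.48, 22.5 and 19.6 FPKM in alpha samples and 9.24, 2.49, 1.40 and 7.86 in beta samples. In delta cells it ranged from 0.226 to 17.0 FPKM, with a median of 8.12. The ranges overlapped in all 3 comparisons. Wnk4 averaged 7.86 FPKM in the high ribosomal set and 21.1 in the low set of alpha cells, and 3.15 and 12.1 in delta cells. Beta cells differed from alpha cells by -1.11 (95% CI -2.72 to 0.50, limma, adjusted p = 0.405), which did not exceed the spread between samples. Wnk2 (ENSMUSG00000037989; chr13:49036303-49148014, minus strand), a kinase best known from the brain, was the least abundant WNK gene. Its mean was 4.46 ± 5.79 FPKM in alpha (SD, n = 5), 1.23 ± 0.500 in beta (SD, n = 4) and 3.41 ± 2.60 in delta cells (SD, n = 6). It too followed the 2 sets, at 0.796 FPKM in the high set of alpha cells and 9.96 in the low set, and at 0.617 and 4.81 in delta cells. With the set as a covariate, beta cells differed from alpha cells by -1.32 for Wnk2 (limma, adjusted p = 0.0562) and by -1.67 for Wnk4 (adjusted p = 0.0994), neither of which was a call.

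Wnk3 took the largest part of the WNK transcript pool in alpha cells and Wnk1 in the other cells. The summed FPKM of the 4 genes was 219.4 ± 104.1 in alpha (SD, n = 5), 136.8 ± 89.1 in beta (SD, n = 4) and 93.6 ± 58.1 in delta cells (SD, n = 6). These sums overlapped, and in alpha cells they were 147.4 FPKM in the high ribosomal set against 327.4 in the low set. In delta cells they were 23.9 FPKM in the high set against 128.4 in the low set. Wnk3 made up 60.3 ± 13.1% of the sum in alpha cells (range 45.2 to 79.4%), 4.79 ± 1.23% in beta cells (3.34 to 6.23%) and 9.23 ± 3.58% in delta cells (6.04 to 15.6%). Wnk1 made up 31.9 ± 11.99% in alpha, 90.1 ± 4.23% in beta and 77.6 ± 7.16% in delta cells. In each of the 5 alpha samples Wnk3 exceeded Wnk1, by a ratio of 1.07 to 4.31, whereas the ratio was at most 0.0744 in beta cells and 0.191 in delta cells. The ratios are given as a description, since they contain the level of Wnk3 by which the gene was chosen.

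**Figure D2:**
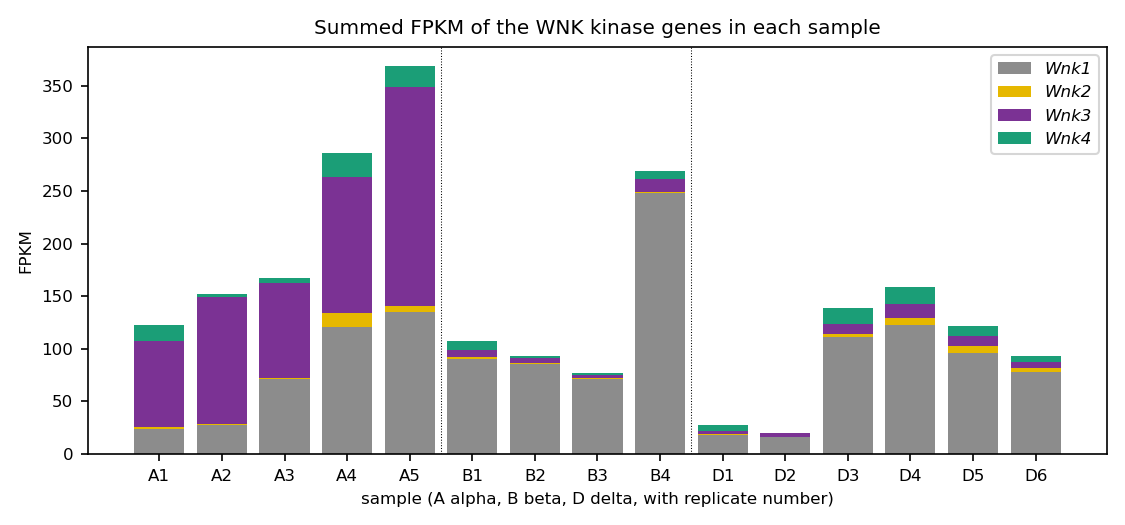
Summed FPKM of Wnk1, Wnk2, Wnk3 and Wnk4 in each of the 15 samples, with each gene's part as a colour. Wnk3 is 45.2 to 79.4% of the bar in the alpha samples (A) and at most 15.6% in the beta (B) and delta (D) samples, where Wnk1 takes the largest part.

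Of the kinases downstream of WNK, Stk39 (ENSMUSG00000027030; chr2:68210445-68472268, minus strand) had its highest values in delta cells. It measured 6.95, 21.3, 8.82, 22.7 and 16.2 FPKM in alpha samples and 9.24, 17.6, 2.81 and 16.8 in beta samples. In delta cells the lowest value was 12.8, the median 29.9 and the highest 66.2 FPKM. Of the 6 delta samples, 4 were above every alpha sample and 5 above every beta sample. Mean levels were 15.2 ± 7.13 FPKM in alpha (SD, n = 5), 11.6 ± 6.97 in beta (SD, n = 4) and 33.4 ± 18.7 in delta cells (SD, n = 6). The difference between delta and beta cells was 1.52 (SE 0.527, 95% CI 0.40 to 2.64), with an unadjusted p of 0.0109 and an adjusted p of 0.0656 by limma, and was not a call. In the high ribosomal set the 2 delta samples averaged 17.4 FPKM and the 1 beta sample was at 17.6, whereas in the low set delta cells averaged 41.4 FPKM and beta cells 9.60. Alpha cells averaged 12.3 FPKM in the high set and 19.5 in the low set. The delta mean was above the beta mean in the low set only. The difference passed the threshold in 4 of 23 alternative fits. These were the fit with the set of samples as a covariate (1.56, adjusted p = 0.0398), quantile normalization (1.45, adjusted p = 0.0438) and the fits without beta sample 2 (1.79, adjusted p = 0.0388) or delta sample 2 (1.75, adjusted p = 0.0375). Without beta sample 3, the lowest of all, it was 1.02 (adjusted p = 0.191). Delta cells differed from alpha cells by 1.04 (95% CI -0.0046 to 2.09, adjusted p = 0.301). Stk39 is in the study's list of differential genes from these samples, so its direction here is not independent evidence.

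Oxsr1 (ENSMUSG00000036737; chr9:119238432-119322427, minus strand), the close relative of SPAK, was at a similar level in the 3 cell types. Mean levels were 5.12 ± 1.69 FPKM in alpha (SD, n = 5), 5.57 ± 3.12 in beta (SD, n = 4) and 5.53 ± 1.83 in delta cells (SD, n = 6). The 95% intervals of the 3 log2 differences reached from -0.77 to 0.80 for beta against alpha cells, from -0.63 to 0.79 for delta against alpha cells and from -0.69 to 0.82 for delta against beta cells. A small nucleolar RNA gene, Gm22729, lies within Oxsr1 on the same strand and reached 13.6 FPKM in 1 sample. The ratio of Stk39 to Oxsr1 was 3.16 ± 1.52 in alpha (SD, n = 5), 2.04 ± 0.909 in beta (SD, n = 4) and 6.00 ± 2.54 in delta cells (SD, n = 6). It differed between the ribosomal sets, at 2.33 in the high set and 4.41 in the low set of alpha cells, and at 3.84 and 7.07 in delta cells. The low-set alpha samples thus lay above the high-set delta samples. Stk39 was above Oxsr1 in each of the 15 samples.

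Among the cotransporters, Slc12a7 (ENSMUSG00000017756; chr13:73733094-73816754, plus strand) was the gene that differed by test. It encodes KCC4, a potassium-chloride cotransporter active in cell swelling and in acid-base transport. Its promoter is shown as that of the member called in that fit, in the same notation. RefSeq gives Slc12a7 a pair of nearby starts, and the window before the upstream one is printed. These starts lie inside the gene bounds given above, which are from GENCODE and begin further upstream.
Slc12a7 (chr13:73763410-73763659, plus strand): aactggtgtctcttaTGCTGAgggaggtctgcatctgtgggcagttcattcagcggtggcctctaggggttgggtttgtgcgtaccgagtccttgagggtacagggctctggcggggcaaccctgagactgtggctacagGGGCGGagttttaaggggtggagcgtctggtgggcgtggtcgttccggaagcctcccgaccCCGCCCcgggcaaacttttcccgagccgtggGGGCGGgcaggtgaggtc
The window held 15 CpG dinucleotides, had a GC content of 63.6%, and carried 3 GGGCGG matches and 1 TGCTGA match, the latter a motif found in 16.1% of all windows.

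Slc12a7 measured 0.297, 0.184, 1.50, 0.401 and 0.346 FPKM in the alpha samples. In the beta samples it measured 4.14, 4.04, 3.04 and 2.33 FPKM. In the delta samples the lowest value was 2.43, the median 3.92 and the highest 9.66 FPKM. Every beta and delta sample was above every alpha sample, also above alpha sample 3, which stood apart from the other alpha samples. Among all genes tested, 3.05% were separated in this direction in beta cells and 4.97% in delta cells. The mean of 0.545 ± 0.538 FPKM in alpha cells (SD, n = 5) compared with 3.38 ± 0.863 in beta cells (SD, n = 4) and 4.90 ± 2.61 in delta cells (SD, n = 6), ratios of 6.21 and 8.99. Without alpha sample 3 the alpha mean was 0.307 FPKM and the ratios were 11.02 and 16.0. Within the high ribosomal set Slc12a7 averaged 0.659 FPKM in alpha and 4.19 in delta cells and was 4.04 in the beta sample, and within the low set it averaged 0.373, 5.25 and 3.17 FPKM in alpha, delta and beta cells. Beta cells were higher than alpha cells by 1.54 on the log2(FPKM + 1) scale (SE 0.346, limma, adjusted p = 0.0120) and delta cells by 1.89 (SE 0.312, adjusted p = 0.000866). Without alpha sample 3 these differences were 1.73 (adjusted p = 0.00554) and 2.08 (adjusted p = 0.000529). They were similar with the set of samples as a covariate, at 1.55 (adjusted p = 0.0126) and 1.90 (adjusted p = 0.00118). When only alpha and beta cells were fitted, the difference of 1.54 had an adjusted p of 0.0534. Delta and beta cells differed by 0.35 (95% CI -0.36 to 1.05, adjusted p = 0.531), and this direction turned under other scalings. Slc12a7 is also in the study's list of differential genes, so its direction is not independent evidence.

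Counted over the pathway, Slc12a7 was the 1 gene called among the 8 tested in beta against alpha cells, where 7.66% of all genes tested were called (2.84% higher in beta cells). It was likewise the 1 gene called among 8 in delta against alpha cells, where 6.81% of all genes were called (5.33% higher in delta cells). None of the 9 genes was called in delta against beta cells, where 14.7% of all genes were called. In that last comparison 3 of the 9 had an unadjusted p under 0.05 by limma, beside 28.4% of all genes. Of these 3, Slc12a2 and Stk39 did not depend on the delta mean to pass the filter and Slc12a5 did. From the 9, 1 gene was called after quantile normalization, where 19.1% of all genes were called, and 2 were called with the set of samples as a covariate, where 20.8% were. The shares of the pathway genes were near those of all genes, or below them for the count of 0. The median log2 difference was -0.054 for beta against alpha and 0.39 for delta against alpha over the 8 genes tested, and 0.54 for delta against beta over the 9 genes, beside -0.13, 0.13 and 0.30 over all genes tested. The comparisons share groups of samples and are not independent of each other.

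**Figure D3:**
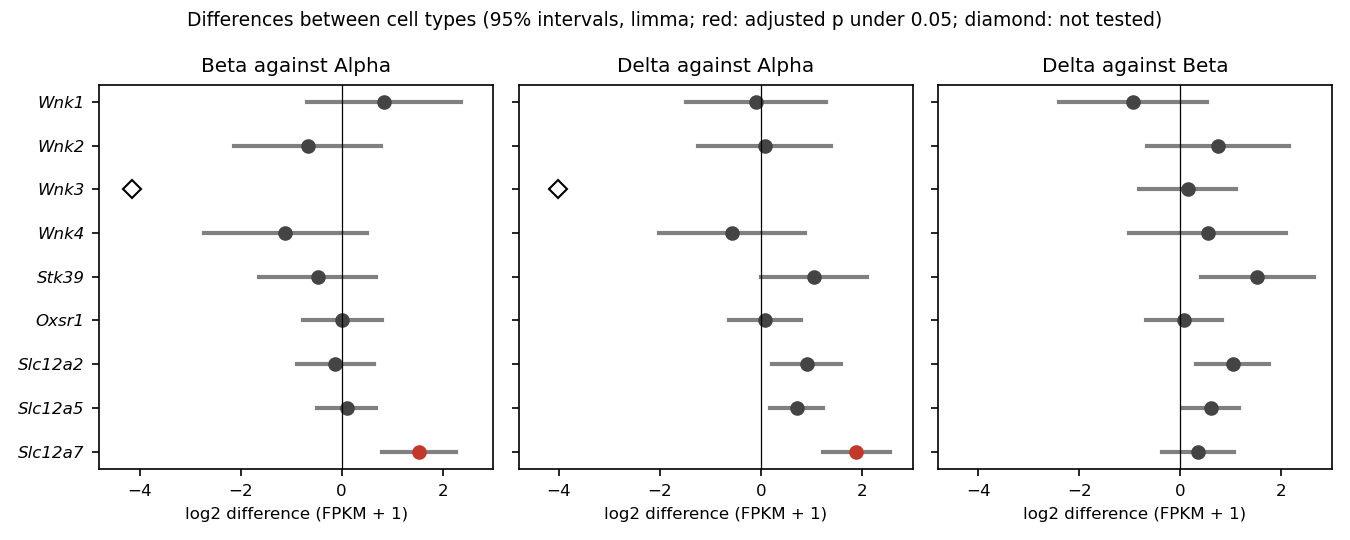
Log2 differences of FPKM + 1 between cell types for the 9 genes, with 95% intervals from limma, for beta against alpha, delta against alpha and delta against beta cells. Red points have an adjusted p under 0.05 and are Slc12a7 in the comparisons with alpha cells, at 1.54 and 1.89. Open diamonds mark Wnk3 where it was not tested, at -4.15 and -4.01.

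Slc12a2 (ENSMUSG00000024597; chr18:57878678-57946821, plus strand) encodes NKCC1, the chloride importer of the group and the target of bumetanide. It measured 1.04, 1.07, 0.642, 1.72 and 1.59 FPKM in alpha samples and 0.746, 1.20, 0.287 and 2.23 in beta samples. In delta cells the lowest value was 1.29, the median 3.68 and the highest 4.94 FPKM. Of the 6 delta samples, 5 were above every alpha sample and 4 above every beta sample, and delta sample 2 was the lowest of them. Mean levels were 1.21 ± 0.440 FPKM in alpha (SD, n = 5), 1.12 ± 0.832 in beta (SD, n = 4) and 3.34 ± 1.52 in delta cells (SD, n = 6). Delta cells differed from beta cells by 1.03 (SE 0.343, 95% CI 0.30 to 1.76), with an unadjusted p of 0.00839 and an adjusted p of 0.0546 by limma. The difference passed the threshold with the set of samples as a covariate (1.06, adjusted p = 0.0357), and without beta sample 4 (1.26, adjusted p = 0.0378), delta sample 2 (1.20, adjusted p = 0.0247) or delta sample 6 (1.15, adjusted p = 0.0446), and not in the other 18 alternative fits. Within the high set Slc12a2 averaged 0.917 FPKM in alpha and 2.62 in delta cells and was 1.20 in the beta sample, and within the low set it averaged 1.65, 3.70 and 1.09 FPKM in alpha, delta and beta cells. Delta cells differed from alpha cells by 0.91 (SE 0.322, 95% CI 0.23 to 1.59, adjusted p = 0.122), a difference that passed the threshold when delta sample 2 was left out (1.08, adjusted p = 0.0496). Alpha and beta cells differed by -0.12 (95% CI -0.88 to 0.63, adjusted p = 0.889).

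Genes of exocrine cells varied among the delta samples. The summed FPKM of 5 acinar markers (Cpa1, Prss2, Pnlip, Ctrb1 and Cel, digestive enzymes) was 1.70 to 417.2 in delta cells, 0.0651 to 53.0 in alpha cells and 0.0283 to 5.24 in beta cells, with the highest value in delta sample 4. Without delta sample 4, the delta against beta difference of Slc12a2 was 0.92 (adjusted p = 0.112) and that of Stk39 was 1.44 (adjusted p = 0.116). Of 3 duct markers, Krt19 was listed at 0 in all delta samples, and the sum with Sox9 and Spp1 was 8.21 to 84.2 FPKM in delta cells, 15.3 to 159.9 in alpha cells and 0.813 to 18.2 in beta cells. Spp1 had the highest mean of the 3 markers in each cell type. Sox9 alone measured 0.112 to 2.33 FPKM in the delta samples and at most 0.0131 in any alpha or beta sample, and is given without a test because only its delta mean was above 1 FPKM. Ppy, the hormone of PP cells, was at 10857 to 48600 FPKM in delta cells and 17728 to 41392 in alpha cells, but at 16.9 to 98.1 in beta cells. The sums of 3 markers each of endothelium, leukocytes and fibroblasts were at most 2.79 FPKM in any sample. The part of these cells in the differences was not tested, and in pooled RNA a different number of cells of a type and a different RNA content per cell cannot be told apart.

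Slc12a5 (ENSMUSG00000017740; chr2:164960802-164999731, plus strand) encodes KCC2, the chloride exporter of mature neurons. It was low throughout, at 0.186, 0.248, 0, 0.381 and 0.809 FPKM in alpha samples and 0.322, 0.493, 0.524 and 0.241 in beta samples. In delta cells the lowest value was 0.690, the median 1.08 and the highest 1.77 FPKM. All 6 delta samples were above all 4 beta samples, as were those of 12.3% of all genes tested, while 4 of the 6 were above every alpha sample. Mean levels were 0.325 ± 0.303, 0.395 ± 0.136 and 1.16 ± 0.473 FPKM in alpha, beta and delta cells (SD, n = 5, 4 and 6). Delta cells differed from alpha cells by 0.70 and from beta cells by 0.61. Because the gene entered the fit through its delta mean, the filtered values (limma, adjusted p = 0.121 and 0.143, neither a call) are a description. In a fit of the 23792 genes left without a filter, the difference from alpha cells was a call (SE 0.180, adjusted p = 0.0377), where 4.71% of all genes were called, and that from beta cells was not (SE 0.192, adjusted p = 0.0671), where 9.08% were called. Within the high ribosomal set Slc12a5 averaged 0.145 FPKM in alpha and 1.15 in delta cells, and within the low set 0.595 and 1.16. Rbfox3, a marker of neurons, averaged 6.94 FPKM in delta cells, 1.04 in beta cells and 0.224 in alpha cells, and its part in the Slc12a5 values was not tested.

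The other genes of the pathway were taken from lists drawn up with earlier results of these data known. Of 5 other Slc12 family genes, Slc12a8 and Slc12a9 were tested and neither was called in any comparison. Of 12 genes for adaptors and turnover of the kinases, among them Cul3 and Klhl2 of the ubiquitin ligase that degrades WNK kinases and Cab39, the partner that activates SPAK and OSR1, 11 were tested. The 1 call in the 3 comparisons, beside 14.7% of all genes called in delta against beta cells, was Tsc22d4, which delta cells had at a higher level than beta cells, by 1.78 (SE 0.545, limma, adjusted p = 0.0377). It averaged 10.4 FPKM in delta cells, 3.08 in beta cells and 7.03 in alpha cells. The call was lost with size factors (1.35, adjusted p = 0.160), after quantile normalization (1.33, adjusted p = 0.130), in the fit without a filter (adjusted p = 0.0646) and without 8 of the 15 samples in turn (beta 1, 2 and 4, delta 1, 3, 4, 5 and 6, adjusted p of 0.0506 to 0.136).

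Chloride channels and exchangers gave more calls, most of them higher in delta cells. Of 22 listed genes, 12 were tested. In delta against beta cells 4 were higher, none was lower and 8 were not called, beside 11.7% of all genes called higher. In delta against alpha cells 4 were higher and 8 were not called, beside 5.33% of all genes called higher. In beta against alpha cells 1 was lower and 11 were not called, beside 4.82% of all genes called lower. The median log2 difference of the list was 0.90, 0.62 and -0.74 in these comparisons, beside 0.30, 0.13 and -0.13 over all genes. Lrrc8b, a subunit of the volume-regulated anion channel, had the largest difference. It averaged 8.57 ± 2.88 FPKM in delta (SD, n = 6), 1.13 ± 1.41 in alpha (SD, n = 5) and 0.107 ± 0.0790 in beta cells (SD, n = 4). Every delta sample was above every beta and alpha sample, as held for 12.3% of all genes tested against beta cells and 4.97% against alpha cells. Delta cells were higher than beta cells by 3.05 (SE 0.385, limma, adjusted p = 5.72e-05) and higher than alpha cells by 2.31 (SE 0.361, adjusted p = 0.000518). Lrrc8d, another subunit of that channel, exceeded its alpha cell level in delta cells by 1.69 (adjusted p = 0.0122, limma), at 24.5 FPKM in delta cells, 16.9 in beta cells and 7.74 in alpha cells. Lrrc8b and Clcn5 are in the study's list of differential genes as well, so their directions are not independent evidence.

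Clcn5, an endosomal chloride-proton exchanger, averaged 10.2 FPKM in delta cells, 4.98 in alpha and 2.56 in beta cells, and was higher in delta cells by 1.68 against beta cells (limma, adjusted p = 0.000830) and by 0.93 against alpha cells (adjusted p = 0.0470). The anion exchangers Slc4a2 and Slc4a3, which swap chloride for bicarbonate, had higher levels in delta than in beta cells, by 1.51 (limma, adjusted p = 0.00184) and 2.01 (adjusted p = 0.000982). Slc4a3 also exceeded its alpha cell level in delta cells, by 1.19 (adjusted p = 0.0367), and beta cells had less Slc4a2 than alpha cells, with a difference of -1.06 (adjusted p = 0.0385). The calls against beta cells held under both scalings, with the covariate for the ribosomal set, without the filter and without each sample. Those of Clcn5 and Slc4a3 against alpha cells held under both scalings and the covariate. With a pseudocount of 0.1 and with a mean above 5 FPKM they were lost for Clcn5 (adjusted p = 0.0821 and 0.0777) and for Slc4a3 (0.0577 and 0.0743). The Slc4a3 call was also lost without the filter (adjusted p = 0.0522) and in the fit of the 2 cell types (0.0532). The Clcn5 call was kept without alpha sample 2, beta sample 2 or beta sample 3 and lost without each of the other 12 samples (adjusted p of up to 0.116). It was also lost with the replicate number as a block (adjusted p = 0.0700). The Slc4a3 call was lost without 8 samples (alpha 1 to 4, beta 1, delta 1, 3 and 5, adjusted p of 0.0522 to 0.1001). The lower Slc4a2 in beta cells was no longer a call with size factors (-0.81, adjusted p = 0.112), after quantile normalization (-0.82, adjusted p = 0.0741), in the fit of the 2 cell types (adjusted p = 0.197) or without 10 samples (alpha 1, 3 and 5, each beta sample, delta 3, 4 and 5, adjusted p of up to 0.0886). With the replicate block this difference was not a call either (adjusted p = 0.0690). Cftr had a listed value of 0 in every alpha and beta sample and was between 0.0999 and 0.929 FPKM in 5 of the 6 delta samples. In the fit without a filter its difference was not a call against alpha cells (limma, adjusted p = 0.243) or beta cells (adjusted p = 0.187).

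**Figure D4:**
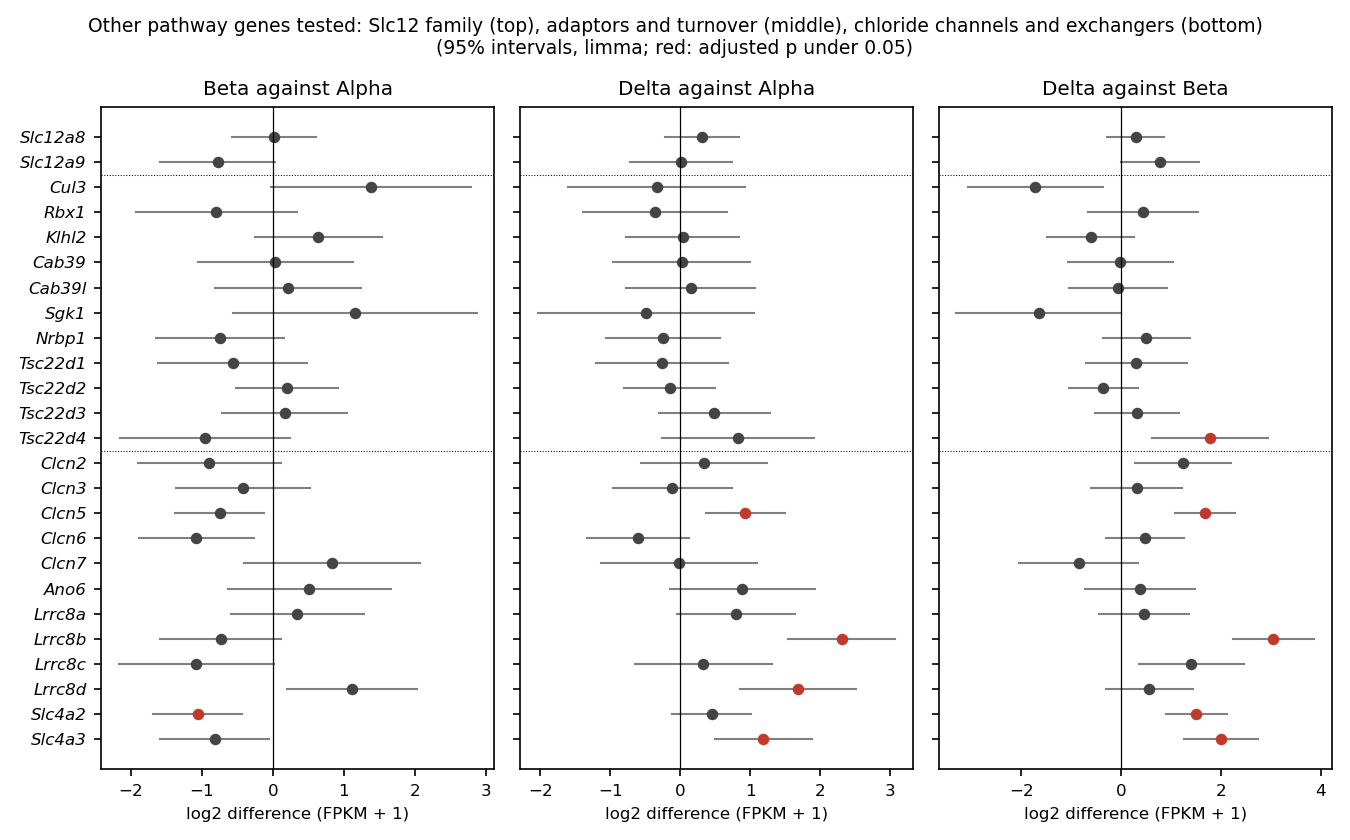
Log2 differences of FPKM + 1, with 95% intervals from limma, for the other pathway genes tested, in beta against alpha, delta against alpha and delta against beta cells. Red points have an adjusted p under 0.05. The calls lie mostly among the chloride channels and exchangers on the side of delta cells, led by Lrrc8b at 2.31 and 3.05.

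The genes whose pattern was most like that of Wnk3, Slc12a2 and Slc12a7 were found by the Pearson correlation of log2(FPKM + 1) over the 15 samples, which share cell types, mouse lines and the 2 ribosomal sets. For Wnk3 they included Avpr1b (0.959), a vasopressin receptor, the glycosyltransferase Galnt13 (0.956) and the transcription factor Pou3f4 (0.953), each with its highest mean in alpha cells. For Slc12a7 they were Pdx1 (0.898), a transcription factor of beta and delta cells that averaged 1.83 FPKM in alpha, 19.0 in beta and 19.3 in delta cells, followed by St8sia5 (0.878), Vil1 (0.874), Mlxipl (0.865) and Frzb (0.860). For Slc12a2 they were the glycolytic enzyme Pfkm (0.939), Add3 (0.909), Lphn2 (0.907), Kctd1 (0.896) and Hap1 (0.889), each with its highest mean in delta cells. Among pairs of pathway genes the correlation was 0.873 for Stk39 with Slc12a2, 0.775 for Slc12a2 with Slc12a5 and 0.729 for Wnk2 with Wnk4, while Wnk3 and Slc12a7 had a correlation of -0.817. By the rank correlation of Spearman, the 5 genes most like Wnk3 and the 5 most like Slc12a7 were others, and those for Slc12a2 included Pfkm and Lphn2. The correlations describe the 15 samples and carry no test.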

How the data were processed

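RNA of 15 sorted islet cell samples was amplified and sequenced as single reads. The authors mapped these to GRCm38 and deposited FPKM values per gene from Cufflinks 2.2.1 (TopHat2 2.0.8 per the submitters' processing notes). Amplification can change the representation of transcripts. The authors' own test used edgeR on raw counts, which were not used here, so no count-based test was run. Samples were grouped by their labels, and whether samples of a group came from separate mice beyond their separate pools was not stated, so the p-values measure the spread between these samples.

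Genes with a mean above 1 FPKM in at least 1 cell type (14405 of 38283) were tested with limma 3.58.1 in R 4.3.3 (lmFit, eBayes with trend) on log2(FPKM + 1), with Benjamini-Hochberg adjustment. Descriptions, motif searches and figures were made in Python 3.11.15 (numpy 2.4.6, pandas 2.3.3, matplotlib 3.10.9) with GENCODE M21 annotation and RefSeq promoter sequences (GRCm38.p6). The fit was also run on simulated data with independent noise and without the 2 ribosomal sets, so that run does not bear on the sets. FPKM keep no read totals, and depth was unknown in 10 samples, so no floor of detection is given. The text names the 9 genes, listed pathway genes that were called, the genes among the 5 most like each of 3 members, and cell type markers. Cul3, Klhl2, Cab39, Slc12a8, Slc12a9 and Cftr were named in addition, after their values were seen. A planned ratio of cotransporter genes and some of the listed genes are not reported here. The members and lists were chosen with earlier results of these data known. Alternatives were a pseudocount of 0.1, no filter or a mean above 5 FPKM, an adjusted p under 0.01, fits of the 2 cell types compared, a replicate block, a covariate for the ribosomal set (divided at 50000 FPKM of ribosomal protein genes), quantile normalization, median-ratio size factors, and leaving out each sample.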

Additional observations from a re-analysis of the deposited data

Results flagged for a closer look

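Of 27 groups of samples examined, 2 held a sample far from the others, and chance alone flags about 1 in 20 groups, or 1.35 here. Wnk1 was at 248.2 FPKM in beta sample 4, where the other beta samples lay between 71.0 and 90.4. Slc12a7 was at 1.50 FPKM in alpha sample 3, where the other alpha samples lay between 0.184 and 0.401.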

How the results depend on the processing

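At an adjusted p under 0.05, Slc12a7 was called in 21 of 22 alternative fits in beta against alpha cells (not in the fit of the 2 cell types) and 22 of 22 in delta against alpha cells. At an adjusted p under 0.01 it was called against alpha cells in delta but not in beta cells. It could not be tested with a mean above 5 FPKM. The calls of all genes in beta against alpha cells (1104, of them 409 higher) became 461 at an adjusted p under 0.01, 407 in the fit of the 2 cell types, 2088 (1107 higher) with median-ratio size factors and 1970 (937 higher) after quantile normalization. Those in delta against alpha cells (981, of them 768 higher) became 567 at 0.01, 518 above 5 FPKM, 1027 (693 higher) with size factors and 1088 (618 higher) after quantile normalization. Those in delta against beta cells (2114, of them 1683 higher) became 1045 at 0.01, 1319 above 5 FPKM, 2656 (1354 higher) with size factors and 2745 (1397 higher) after quantile normalization. Leaving out each sample gave 651 to 1698, 792 to 1115 and 1420 to 2643 calls. The size factors moved the median difference of all genes to 0, 0.00 and 0.00. Members called in beta against alpha cells (1) became 0 at 0.01, above 5 FPKM and in the fit of the 2 cell types, and stayed at 1 without each sample. In delta against alpha cells (1) they became 2 without a filter and 0 above 5 FPKM, and were 1 to 2 without each sample. In delta against beta cells (0) they became 1 after quantile normalization and 2 with the set as a covariate, a fit in which the calls of all genes rose to 2997, and were 0 to 2 without each sample. Of the chloride channels and exchangers, 1 was called in beta against alpha cells and 0 after quantile normalization, in the fit of the 2 cell types and with the replicate block, and 4 were called in delta against alpha cells and 2 with a pseudocount of 0.1 or a mean above 5 FPKM. Without each sample 0 to 1, 2 to 4 and 4 to 5 were called in the 3 comparisons. These last alternatives were chosen after seeing the data. The cause was not tested.

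Directions turned in 38 values of 9 differences, none of them called (adjusted p of 0.516 or more). For beta against alpha cells, Oxsr1 was -0.0049 with a pseudocount of 0.1 and -0.00053 with the replicate block. For delta against alpha cells, Wnk1 was 0.077 after quantile normalization. Wnk2 was -0.011 with the replicate block, -0.042 with size factors, -0.28 after quantile normalization and -0.42 with the set covariate. Oxsr1 was -0.065 with size factors and -0.10 after quantile normalization. For delta against beta cells, size factors and quantile normalization gave -0.21 and -0.17 for Wnk3, -0.26 and -0.28 for Oxsr1, and -0.0089 and -0.12 for Slc12a7. Leaving out each sample in turn gave ranges that crossed 0. In beta against alpha cells they were -0.26 to 0.32 for Oxsr1, -0.74 to 0.021 for Stk39 and -0.35 to 0.089 for Slc12a2. In delta against alpha cells they were -0.43 to 0.24 for Wnk1, -0.32 to 0.60 for Wnk2 and -0.011 to 0.22 for Oxsr1. In delta against beta cells they were -0.16 to 0.45 for Wnk3 and -0.24 to 0.35 for Oxsr1.

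The replicate block gave 1227, 831 and 2001 calls in the 3 comparisons, and 1, 1 and 0 members called, as without it. Of the other pathway genes, it ended the calls of Slc4a2 in beta against alpha cells, Clcn5 in delta against alpha cells and Tsc22d4 in delta against beta cells (adjusted p = 0.0690, 0.0700 and 0.156). Whether replicate numbers pair the samples was not settled. The 13 pairs with the same number had correlations of -0.15 to 0.28 and 5 were over 0.1. Pairs with a delta sample join different mouse lines. The correlation was 0.27 for alpha 2 with beta 2, both of the high ribosomal set, and -0.15 for alpha 3 with beta 3, of different sets. The check thus cannot decide whether alpha and beta samples of 1 number shared islets. With depth unknown in most samples, values of Slc12a5 and Slc12a7 below 1 FPKM have unknown counting error.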
